A study of Mus musculus with 24 samples.

Results

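The 7 genes of the AP-1 transcription factor family that respond early to stimulation, Fos, Fosb, Fosl2, Jun, Junb, Jund and Atf3, were followed in the hippocampus of 24 adult mice. They were taken by symbol from the 36605 genes of the count table, and all 7 were found. On GRCm38 (mm10), with the gene models of GENCODE M21, Fos (ENSMUSG00000021250) lies at chr12:85473890-85477273, Fosb (ENSMUSG00000003545) at chr7:19302696-19310051 and Fosl2 (ENSMUSG00000029135) at chr5:32135801-32157842. Jun (ENSMUSG00000052684) lies at chr4:95049034-95052222, Junb (ENSMUSG00000052837) at chr8:84974484-84978718, Jund (ENSMUSG00000071076) at chr8:70698949-70700616 and Atf3 (ENSMUSG00000026628) at chr1:191170296-191218039. The mice formed 4 genotypes of 3 females and 3 males each. Egr1wtNesCre- mice were wild type, Egr1fNesCre- mice carried the loxP-flanked Egr1_tm1a allele on C57BL/6N, Egr1wtNesCre+ mice carried the B6.Cg-Tg(Nes-Cre)1Kln/J transgene, and Egr1fNesCre+ mice (Egr1cKO) carried both. The Nestin promoter drives Cre in neural precursors, so Egr1 is lost in the neurons and glia that descend from them and not in vessels, blood cells or microglia. None of the groups received a treatment in the sample labels, and the exact ages are not given there. All Egr1wt mice bore numbers of one series (HP40xx) and all Egr1f mice numbers of another (HP49xx), so that a difference between Egr1f and Egr1wt mice cannot be told apart from one between the series.

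AP-1 is a dimer of basic leucine zipper proteins. Members of the Fos group pair with members of the Jun group, and the pair binds short DNA sites in promoters and enhancers. In neurons, calcium entry and growth factor signals act through CREB, SRF and their partners on promoters that are already poised, and Fos, Fosb and Junb transcripts rise and decay within a short time after a burst of activity. Egr1, the gene deleted here, is an immediate early gene of the same response. Fos transcripts are therefore used in the hippocampus as a trace of recent activity, whereas Jund is mostly constitutive.

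Windows of sequence around the starts of the members, from 250 bases before to 50 bases after, were read from RefSeq on GRCm38.p6, where all 7 members were found. They are shown for Fos, Fosb and Junb, whose levels went together over the mice, and for Fosl2, whose level did not follow that of Fos. Each window is written 5′ to 3′ on the strand of its gene. Capitals mark the half-site of the cAMP response element (TGACG, bound by CREB) and the site that EGR1 itself binds (GCGNGGGCG), each searched on both strands. The windows are chr12:85473640-85473939 on the + strand for Fos, chr7:19309996-19310295 on the - strand for Fosb, chr8:84978699-84978998 on the - strand for Junb and chr5:32136222-32136521 on the + strand for Fosl2.
Fos: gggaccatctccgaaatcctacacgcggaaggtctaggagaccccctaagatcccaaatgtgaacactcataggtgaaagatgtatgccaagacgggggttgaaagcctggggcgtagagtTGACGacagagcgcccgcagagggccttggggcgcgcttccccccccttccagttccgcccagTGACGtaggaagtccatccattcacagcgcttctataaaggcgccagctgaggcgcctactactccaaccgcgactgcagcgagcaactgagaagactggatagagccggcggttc
Fosb: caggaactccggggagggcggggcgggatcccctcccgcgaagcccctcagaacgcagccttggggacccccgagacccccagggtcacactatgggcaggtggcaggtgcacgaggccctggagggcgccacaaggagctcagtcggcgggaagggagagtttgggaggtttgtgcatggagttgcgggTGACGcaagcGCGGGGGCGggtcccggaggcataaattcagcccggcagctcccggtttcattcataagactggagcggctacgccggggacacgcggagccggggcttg
Junb: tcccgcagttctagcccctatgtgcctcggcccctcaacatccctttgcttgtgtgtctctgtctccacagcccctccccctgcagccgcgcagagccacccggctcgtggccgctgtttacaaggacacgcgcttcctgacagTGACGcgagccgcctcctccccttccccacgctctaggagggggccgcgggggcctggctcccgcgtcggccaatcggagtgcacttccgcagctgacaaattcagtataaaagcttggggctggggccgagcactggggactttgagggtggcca
Fosl2: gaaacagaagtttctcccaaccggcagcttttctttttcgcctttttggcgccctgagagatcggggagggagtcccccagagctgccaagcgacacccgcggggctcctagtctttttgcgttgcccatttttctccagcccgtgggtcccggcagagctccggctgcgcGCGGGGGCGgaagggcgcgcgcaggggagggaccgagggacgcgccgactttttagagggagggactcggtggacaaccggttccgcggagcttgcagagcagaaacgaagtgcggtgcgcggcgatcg
The half-site was found 2 times in Fos and 1 time in each of Fosb, Junb and Atf3, and was not found in the windows of Fosl2, Jun and Jund. Of the 32851 windows in the RefSeq table, 20.8% hold it. The EGR1 site was found 1 time in Fosb and 1 time in Fosl2, and 5.55% of all windows hold it. The full element TGACGTCA (1.79% of all windows), the AP-1 site TGANTCA (7.81%) and the serum response element core (1.63%) were in none of the 7 windows. Fos and Junb hold the TATA box letters TATAAA, as do 13.6% of all windows, and Jun, Junb and Atf3 hold CCAAT, as do 37.4%. The half-site and the full element overlap by construction. The Jund window lies upstream of the start that GENCODE gives, and the windows of Fosl2 and Atf3 lie inside the GENCODE gene, downstream of its outermost start, so that their matches concern 1 start among several. These matches describe letters in short windows, and do not show that a factor binds there. Sites more than 250 bases before a start, or with other letters, were not searched. A motif absent from a window can thus still act on that gene.

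Egr1, the targeted gene, was at 47.7 to 149 CPM (read counts scaled to the TMM-adjusted size of each library) in the 18 mice of the other genotypes and at 4.86 to 10.2 CPM in the 6 Egr1cKO mice, a log2FC of -3.59 (SE 0.23, edgeR adjusted p = 1.19e-11). The labels describe the cells as endocrine, but 10 markers of hippocampal neurons summed to between 5619 and 8789 CPM per mouse and 7 pituitary markers to between 1.00 and 3.84 CPM, with Prl, Cga and Fshb at a median of 0. Library totals ran from 18025168 to 34955004 counts. Choroid plexus markers summed to over 100 CPM in 5 mice, Male Egr1fNesCre- 2 and 3, Male Egr1fNesCre+ 2, Male Egr1wtNesCre+ 3 and Female Egr1wtNesCre+ 1. The libraries were not stranded, so strand cannot assign reads from bases that genes share. Jun shares 232 exonic bases with the antisense gene Junos, and Junb shares 173 bases with Prdx2. Jund shares 877 of its 1668 bases with the antisense gene Gm11175. Reads there may be credited to the wrong gene or left out of the counts, and which of these happened was not checked. In counts, Female Egr1fNesCre- 1 stood apart from the other mice of its group (chi-square per gene 22.2 and 16.6 against them, and 6.05 between them).

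All 7 members passed the filter on low counts in every comparison. Per kilobase of exon, which allows levels to be set side by side between genes, Junb (34.9 ± 9.72 CPM per kb, SD, n = 24) and Jun (31.2 ± 3.96) were highest. Jund followed (16.1 ± 2.51), then Fos (8.86 ± 4.74), Fosl2 (6.67 ± 1.79), Fosb (2.82 ± 0.944) and Atf3 (0.548 ± 0.240). Junb and Jun, and Fos and Fosl2, were neighbors in this order that differed by less than their spread over mice. The length counts all annotated exons of a gene, used or not. It also counts shared bases, such as 877 of the 1668 of Jund, so the order is approximate. If reads from shared bases were left out, Jund is placed too low. Atf3, a stress-induced member that can repress transcription, was counted only 7 to 54 times per library, so its values carry a wide counting error.

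The members differed in how widely they varied between mice. Fos, the classical activity-dependent gene, spanned 11.7-fold from the lowest to the highest mouse, Atf3 7.18-fold, Fosb 4.49-fold and Junb, its partner in the early response, 3.39-fold. Fosl2 spanned 2.67-fold, Jun 1.71-fold and Jund 1.66-fold. Within the 8 groups of 3 mice, the SD of log2(CPM + 1) of Fos was at the 99.9th percentile of the 19742 genes kept over the 24 mice, that of Fosb at the 98.7th and that of Junb at the 98.4th. Jun, by contrast, was at the 36.8th percentile and Jund at the 61.3rd. The 8 group means took up 13.5% of the variance of Jund, 16.9% of that of Fos and 23.2% of that of Junb. The share was 35.2% for Fosb, 39.2% for Jun, 44.4% for Atf3 and 69.3% for Fosl2. With 8 means fitted to 24 mice, part of the variance goes to the groups even where they do not differ. This part was not subtracted, so the shares alone, low or middling, do not show an effect of genotype or sex. Mice of 1 group could differ widely. In female Egr1wtNesCre+ mice Fos was at 51.8, 9.96 and 8.55 CPM, the first of these being the highest of all 24 mice, and in male Egr1wtNesCre+ mice it was at 23.9, 4.42 and 24.5 CPM. The other groups of males held a spread too, with 17.4, 7.40 and 36.8 CPM in Egr1wtNesCre-, 24.1, 11.8 and 34.9 CPM in Egr1fNesCre- and 4.76, 16.2 and 26.3 CPM in Egr1fNesCre+.

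**Figure D1:**
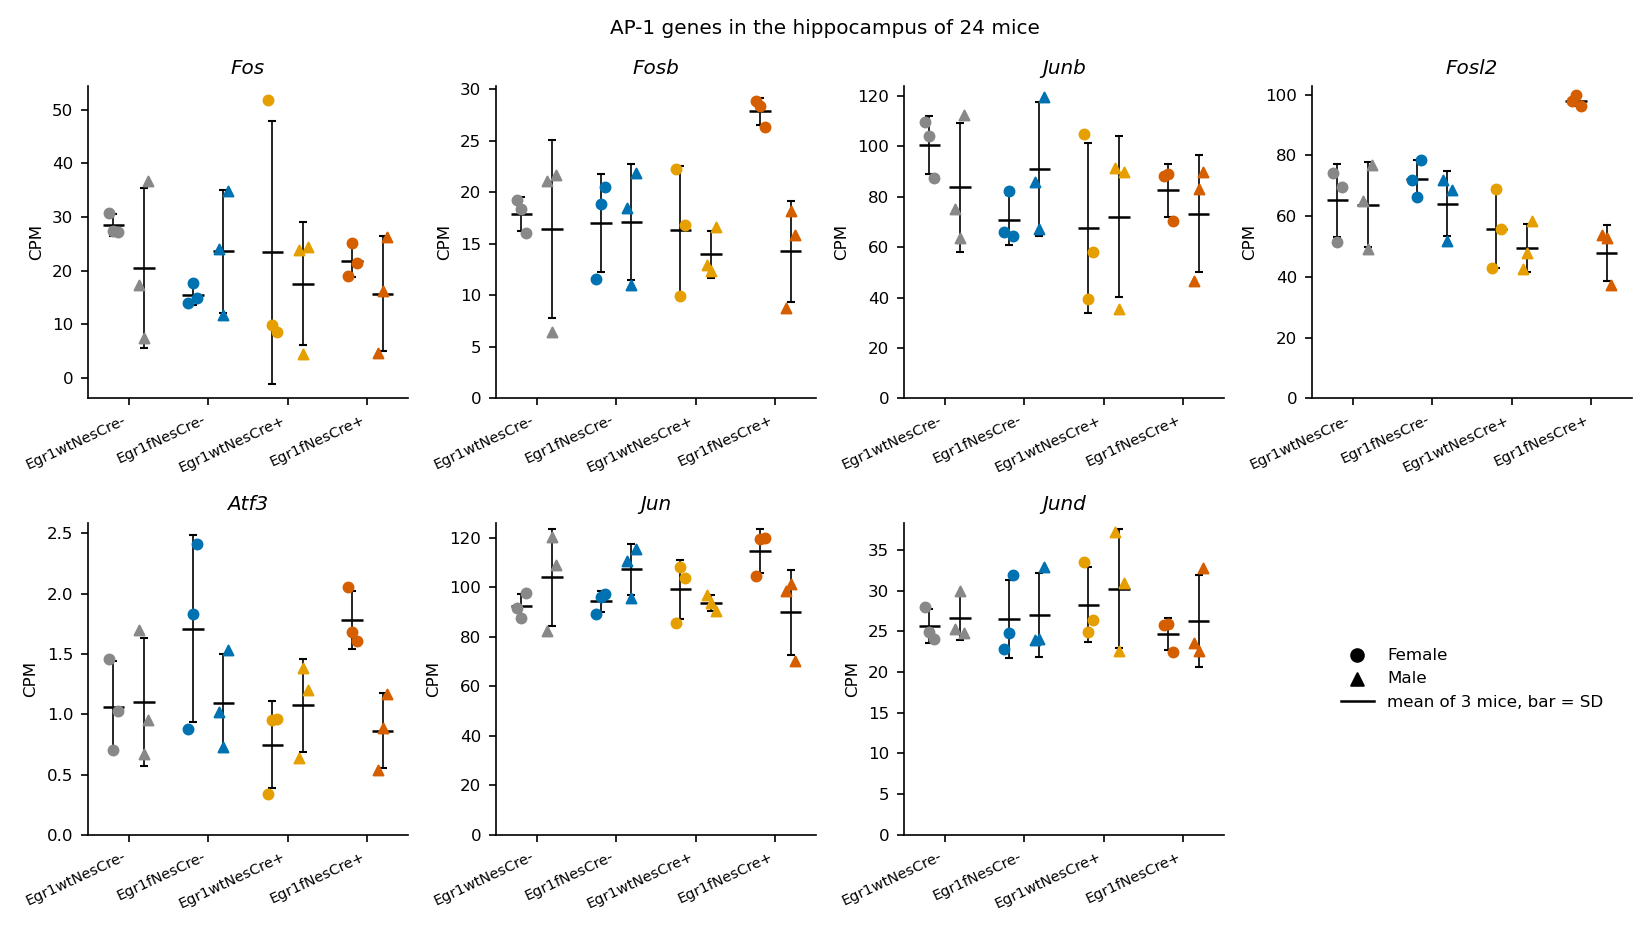
CPM of each AP-1 gene in each mouse (circles, females, triangles, males, 3 mice per group), with the group mean and SD as black bars and genotypes along the x axis. Fosl2 in the 3 Egr1fNesCre+ females (96.4 to 99.7 CPM) lies above all other mice, whereas Fos spreads from 4.42 to 51.8 CPM with groups that overlap.

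Whether the members change with the loss of Egr1 was asked first with both sexes together. Between the 6 Egr1cKO mice and the 18 others, edgeR called 0 of the 7 members (0.00543% of the 18433 genes tested were called) and DESeq2 called 0. An unadjusted p under 0.05 was reached by 0 members, and by 2786 of the 18433 genes. The log2FC was -0.19 for Fos (95% interval -0.90 to 0.52), 0.36 for Fosb (-0.05 to 0.77), 0.24 for Fosl2 (-0.07 to 0.56) and 0.06 for Jun (-0.11 to 0.23). It was -0.05 for Junb (-0.42 to 0.32), -0.10 for Jund (-0.29 to 0.10) and 0.24 for Atf3 (-0.35 to 0.82). The intervals of Jun and Jund thus allow only small changes in either direction, while that of Fos still allows a change of nearly 1 on the log2 scale downward. Without the 5 mice with choroid plexus RNA, a setting chosen after the data were seen, the value of Fos turned to 0.037 (-0.70 to 0.77) and 0 members were called. Leaving out Male Egr1fNesCre+ 3, edgeR called 1.15% of 18646 genes and 0 members. In whole hippocampus, fewer cells that express a gene and less RNA per cell cannot be told apart.

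Against the floxed controls, 0 members were called in Egr1fNesCre+ mice of both sexes (0.0232% of 17265 genes) and DESeq2 called 0. Of those genes 2794 had an unadjusted p under 0.05, and of the members 0. Fos was at 4.76, 20.3 and 26.3 CPM (lowest, median and highest of 6) in Egr1fNesCre+ and at 11.8, 16.3 and 34.9 CPM in Egr1fNesCre-, so that the genotypes overlapped (log2FC -0.04, 95% interval -0.72 to 0.63). The median log2FC of the 7 members was -0.04, against -0.0071 over all genes tested. Against Egr1wtNesCre+ mice, which share the transgene but not the series of mouse numbers, 0 members were called (0.00585% of 17080 genes) and DESeq2 called 0. There 2102 of the 17080 genes had an unadjusted p under 0.05, among them 1 member. That member was Fosl2, with a log2FC of 0.38 (SE 0.16, edgeR adjusted p = 0.377). These comparisons share the Egr1fNesCre+ mice and are not independent.

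The transgene and the floxed allele were also compared alone. Egr1wtNesCre+ against Egr1wtNesCre- mice of both sexes gave 0 called members (0% of 17167 genes), 1 with an unadjusted p under 0.05 (1038 of all genes tested), and 0 by DESeq2. Of the 7 members 6 had a negative log2FC, with a median of -0.23 against 0.013 over all genes, and Fosl2 had the smallest p (log2FC -0.29, SE 0.13, edgeR adjusted p = 0.754). Egr1fNesCre- against Egr1wtNesCre- mice gave 0 called members (0% of 17393 genes), 0 with an unadjusted p under 0.05 (1683 of all genes tested) and 0 by DESeq2, with 4 positive and 3 negative values. Without the 5 mice with choroid plexus RNA, the values for Nestin-Cre were -1.05 for Fos (edgeR adjusted p = 0.881) and -0.72 for Junb (edgeR adjusted p = 0.881), against -0.23 and -0.38 with all 12 mice. In the interaction of the floxed allele and Nestin-Cre over 24 mice, 0 members were called (0.00507% of 19742 genes) and 0 had an unadjusted p under 0.05 (3637 of all genes tested). DESeq2 called 0, although its adjusted p was missing for 5 of the 7. All 7 intervals of the interaction included 0, the widest being that of Fos (log2 value 0.16, -1.09 to 1.41). Without the same 5 mice the interaction was 1.18 for Fos (-0.067 to 2.42) and 0.76 for Junb (0.10 to 1.41), again with 0 called.

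The pathway genes around AP-1 were not called in the pooled comparisons of the knockout either. Of 31 upstream regulators (kinases, CREB, SRF, MEF2 and their partners), 27 rapidly induced genes, 19 late or target genes and 21 other basic leucine zipper genes, of which 18 passed the filter, 0 were called in either direction when Egr1cKO mice were set against the 18 others or against Egr1fNesCre- mice. Over all genes tested, only 0.00543% and 0.0232% were called there. Srf, a factor that acts on the Fos promoter, had a log2FC of 0.19 in Egr1fNesCre+ against Egr1fNesCre- mice (SE 0.08, edgeR adjusted p = 0.286). Among the activity-dependent genes, Arc, Npas4, Nr4a1 and Egr2 had values of 0.08, 0.04, -0.08 and 0.74, none of which passed the test. Egr2 had 1.00 against Egr1wtNesCre+ mice (edgeR adjusted p = 0.394) and 1.54 in the interaction (edgeR adjusted p = 0.190). Npas4 was negative in both, at -0.62 and -0.21. Srf had 0.36 in the interaction (edgeR adjusted p = 0.159).

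Taken by sex, the comparison of Egr1fNesCre+ with Egr1fNesCre- mice gave values of opposite sign for every member but Jund. The difference between the sexes, tested below, was called for 0 members. In females, Fosb, whose stable splice form accumulates with repeated activity, was at 28.8, 28.3 and 26.3 CPM in Egr1fNesCre+ and at 11.6, 18.9 and 20.5 CPM in Egr1fNesCre- mice, without overlap. Fosl2, a member that responds more slowly, was at 97.7, 99.7 and 96.4 CPM against 71.7, 66.2 and 78.5 CPM, and Fos at 19.0, 25.1 and 21.5 CPM against 14.0, 17.7 and 14.8 CPM, again without overlap. Jun, the main partner of Fos, was at 104, 119 and 120 CPM against 89.3, 96.0 and 97.4 CPM. With 3 mice a group, genes can also separate by chance. The share of all genes without overlap was not counted, so the separation is only a description. The log2FC was 0.71 for Fosb (SE 0.17, edgeR adjusted p = 0.0696), 0.44 for Fosl2 (SE 0.09, edgeR adjusted p = 0.0515), 0.49 for Fos (SE 0.14, edgeR adjusted p = 0.0980) and 0.28 for Jun (SE 0.09, edgeR adjusted p = 0.123). None of these passed the threshold, so that edgeR called 0 of the 7 members (0.288% of 17359 genes). An unadjusted p under 0.05 was reached by 4 members, and by 3189 of the 17359 genes. DESeq2 called those 4 members, along with 5.28% of the 13982 genes to which it gave an adjusted p. Over the alternatives, the edgeR or DESeq2 adjusted p ran from 1.48e-05 to 0.375 for Fosb and from 0.000600 to 0.317 for Fosl2. Without Female Egr1fNesCre- 1, the mouse with the lowest Fosb and Fos of its group, edgeR called 3 members, Fos, Fosb and Fosl2, but also 16.1% of all 17985 genes, so that the gain was not particular to the members. Without the filter on low counts it called 3 members and 3.76% of 31608 genes. Of the 7 members 6 were positive, with a median of 0.28 against -0.015 over all genes, Junb being at 0.21, Atf3 at 0.08 and Jund at -0.10.

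Of the 27 rapidly induced genes, 21 were positive in the same females, and 1 was called, Egr2, which rose by 1.48 on the log2 scale (SE 0.21, edgeR adjusted p = 0.0145). It was at 14.7, 11.1 and 14.4 CPM in Egr1fNesCre+ and at 3.31, 6.31 and 4.77 CPM in Egr1fNesCre- females. Egr2 was called in 6 of 11 alternatives and lost in 5, among them those without Female Egr1fNesCre- 3, Female Egr1fNesCre+ 1 or Female Egr1fNesCre+ 3 (edgeR or DESeq2 adjusted p from 1.69e-12 to 0.318). It encodes a close relative of EGR1 among the zinc finger factors of the early response. Of the 19 late or target genes, Nr4a3 rose by 0.52 (SE 0.09, edgeR adjusted p = 0.0319) and 9 of 19 were positive. That call was lost in 7 of 11 alternatives, and among the leave-one-out settings it held only without Female Egr1fNesCre- 1 (adjusted p from 6.70e-06 to 0.303 over the alternatives). Arc, with a log2FC of 0.55 (SE 0.11, edgeR adjusted p = 0.0515), Srf at 0.32, Npas4 at 0.32 and Nr4a1 at 0.14 did not pass. Markers of cell types moved too. The 10 hippocampal neuron markers summed to 8737, 7600 and 7511 CPM in Egr1fNesCre+ females and to 7189, 6894 and 6893 CPM in Egr1fNesCre- females. The 6 astrocyte markers, of which Aqp4 rose by 0.86 and 5 were positive, summed to between 1826 and 1919 CPM in Egr1fNesCre+ females and between 1274 and 1633 CPM in Egr1fNesCre- females. Ttr, a choroid plexus marker, rose by 1.04, and its list of 8 summed to between 51.7 and 59.9 CPM against 36.6 and 39.2 CPM. The call of Aqp4 was lost in 7 of 11 alternatives (adjusted p from 2.51e-17 to 0.146), and without any 1 mouse other than Female Egr1fNesCre- 1. That of Ttr was lost in 6 (adjusted p from 2.09e-09 to 0.785), among them without Female Egr1fNesCre- 3 or any 1 of the Egr1fNesCre+ females. All 6 oligodendrocyte markers were negative, with a median of -0.28. The part of these cell types in the values of the AP-1 members was not tested.

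In males, all 7 members were negative, with a median of -0.30 against 0.0038 over all genes, and the groups overlapped for every member. Fosl2 was at 53.7, 52.7 and 37.3 CPM in Egr1fNesCre+ and at 71.9, 51.9 and 68.4 CPM in Egr1fNesCre- males (log2FC -0.41, SE 0.17, edgeR adjusted p = 0.954). Here edgeR called 0 members (0.00569% of 17586 genes), 1 had an unadjusted p under 0.05 (535 of all genes tested) and DESeq2 called 0. The difference between the sexes was then tested itself, in a contrast over the 24 mice that was added after the values in each sex had been seen. It gave 0 called members (0% of 19742 genes), 2 with an unadjusted p under 0.05 (884 of all genes tested) and 0 by DESeq2. Fosl2 differed by 0.86 between the sexes (95% interval 0.34 to 1.39, edgeR adjusted p = 0.915), Jun by 0.54 (0.16 to 0.92), Fosb by 0.98 (-0.01 to 1.97) and Fos by 1.07 (-0.75 to 2.90). A difference between the sexes was thus not established for any member.

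**Figure D2:**
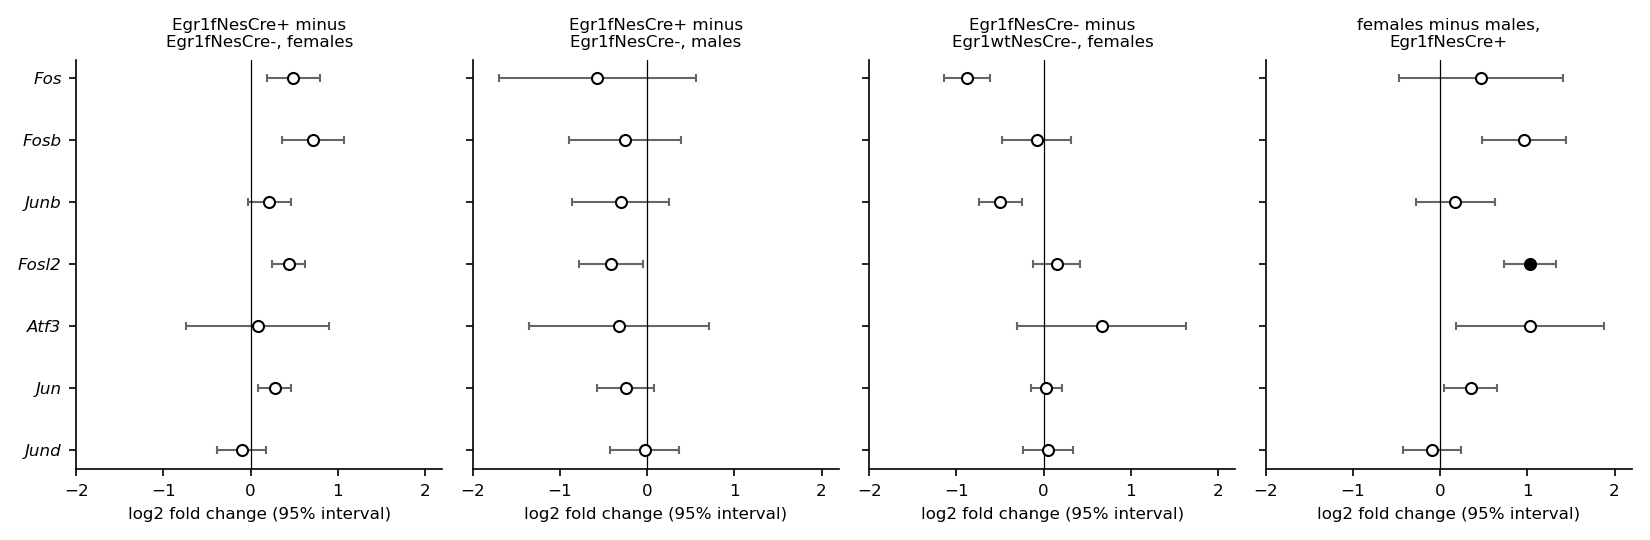
Log2 fold changes of the 7 AP-1 genes with 95% intervals from the edgeR fit in 4 comparisons of 3 mice with 3, the x axis being log2 fold change and filled points those that passed the test. Only Fosl2 between Egr1fNesCre+ females and males (1.03) passed, and the first 2 panels share no sign except for Jund.

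Fos and Junb were low in floxed females without Cre. Fos was at 14.0, 17.7 and 14.8 CPM in Egr1fNesCre- females and at 30.8, 27.3 and 27.3 CPM in Egr1wtNesCre- females, and Junb at 65.9, 82.4 and 64.5 CPM against 110, 104 and 87.6 CPM. Neither gene overlapped between the groups, but the share of all genes without overlap was not counted here either. The log2FC of Fos was -0.88 (SE 0.12, 95% interval -1.14 to -0.61, edgeR adjusted p = 0.0505) and that of Junb -0.50 (SE 0.11, -0.75 to -0.25, edgeR adjusted p = 0.412). With 0 of the 7 called by edgeR (0.0113% of 17727 genes), 2 had an unadjusted p under 0.05 (1583 of all genes tested). DESeq2 called the same 2, with 0.315% of 11741 genes. For Fos the adjusted p of the alternatives ran from 7.53e-08 to 0.836. Without Female Egr1fNesCre- 1, among the libraries that stood apart in their groups, edgeR called both Fos and Junb together with 6.18% of all 18388 genes. Without the filter on low counts both were called, with 0.684% of 32186 genes. Fosb (-0.08) and Fosl2 (0.15) showed no such values. The Egr1fNesCre- females also served as controls of the Egr1fNesCre+ females above. Set side by side, Fos was at 28.5 ± 2.03 CPM (SD, n = 3) in Egr1wtNesCre-, 15.5 ± 1.92 in Egr1fNesCre- and 21.9 ± 3.06 in Egr1fNesCre+ females.

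Among the 27 rapidly induced genes in this comparison, 1 was called, Npas4, an activity-dependent factor, which fell by 1.02 on the log2 scale (SE 0.14, edgeR adjusted p = 0.0487), and 8 were positive. The call was lost in 7 of 11 alternatives, and without any 1 mouse other than Female Egr1fNesCre- 1, with log2FC between -1.09 and -0.92 and adjusted p between 1.64e-09 and 0.836. The median of the list was -0.21, against 0.0035 over all genes. Egr2 (-1.01), Arc (-0.57) and Nr4a1 (-0.43) had an edgeR adjusted p of 0.412. All 16 genes of a list that responds to glucocorticoids were positive here, with a median of 0.30, and 0 were called. In males the same genotypes gave 0 called members (0% of 17255 genes), 0 with an unadjusted p under 0.05 (473 of all genes tested) and 0 by DESeq2, with Fos at 0.21 (95% interval -0.77 to 1.18).

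Nestin-Cre alone gave 0 called members in females (0% of 17560 genes, 0 with an unadjusted p under 0.05 and 0 by DESeq2) and 0 in males (0% of 17320 genes, 1 with an unadjusted p under 0.05 and 0 by DESeq2). Over all genes tested, 1309 in females and 319 in males had an unadjusted p under 0.05. In females the values depended on single libraries. Female Egr1wtNesCre+ 1, with Fos at 51.8 CPM, Junb at 105 CPM and Npas4 at 64.4 CPM, was also the library with the highest sum of choroid plexus markers (2059 CPM) and the lowest Atf3 (0.336 CPM). Over all 6 females Fos had a log2FC of -0.27 (SE 0.55) and Junb of -0.56 (SE 0.28), and without that library edgeR called both, at -1.63 (SE 0.13, edgeR adjusted p = 0.000816) and -1.04 (SE 0.15, edgeR adjusted p = 0.0226), with 0.179% of 18386 genes. With all 6 females and no filter on low counts, edgeR called Junb and 0.737% of 32027 genes. Over all alternatives the adjusted p of Fos ran from 0.000816 to 0.993 and that of Junb from 1.42e-05 to 0.972. Without Female Egr1wtNesCre+ 2 the value of Fos turned to 0.088, and without Female Egr1wtNesCre+ 3 to 0.13.

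Between the sexes, the only call among the members was Fosl2 in Egr1fNesCre+ mice. It was at 97.7, 99.7 and 96.4 CPM in females and at 53.7, 52.7 and 37.3 CPM in males, so that the females lay close together and well above the males. The log2FC was 1.03 (SE 0.13, 95% interval 0.73 to 1.33, edgeR adjusted p = 0.0243), and this was 1 called member of 7 (0.0635% of 17335 genes). DESeq2 called 2, Fosl2 and Fosb, with 0.237% of 21927 genes, and 4 had an unadjusted p under 0.05 in edgeR (1286 of all genes tested). The call was lost without any 1 of the females or without Male Egr1fNesCre+ 2, at edgeR adjusted p between 0.0642 and 0.270, and kept without Male Egr1fNesCre+ 1 (0.0222, 0.123% of genes called) or 3 (5.89e-05, 0.27% of genes called). The size stayed between 0.88 and 1.12 over 11 alternatives, 6 of which called it, with an adjusted p between 3.05e-16 and 0.270. Fosb was at 28.8, 28.3 and 26.3 CPM in females and at 8.78, 18.2 and 15.9 CPM in males, without overlap, at a log2FC of 0.96 (SE 0.22, edgeR adjusted p = 0.445, and 3.70e-08 to 0.943 over the alternatives). Atf3 was at 2.06, 1.68 and 1.61 CPM against 0.539, 0.889 and 1.17 CPM, also without overlap (log2FC 1.03, SE 0.38, edgeR adjusted p = 0.580). Jun, at 104, 119 and 120 CPM against 98.3, 101 and 70.2 CPM, did not overlap either (log2FC 0.35, SE 0.14, edgeR adjusted p = 0.622), whereas Fos (0.47), Junb (0.17) and Jund (-0.09) overlapped between the sexes. How many of all genes separate these females from these males was not counted.

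Several other values moved with sex in the same 6 mice. All 16 glucocorticoid-responsive genes were positive, with a median of 0.55 against -7.4e-05 over all genes tested, and 0 were called. Their sum was 1059, 903 and 729 CPM in the females, and the males had sums of 638, 729 and 582 CPM. Tsc22d3, a direct target of the glucocorticoid receptor, was at 118, 104 and 72.9 CPM against 43.7, 62.3 and 49.3 CPM. Of the 6 choroid plexus markers tested 0 were positive, and their list of 8 summed to between 51.7 and 59.9 CPM in females and to 31.7, 81.6 and 1143 CPM in males. Without the male of 1143 CPM the log2FC of Fosl2 was as large, at 1.10 (SE 0.15, edgeR adjusted p = 0.0642). The part of the glucocorticoid-responsive genes in the level of Fosl2 was not tested.

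In the other genotypes the sexes did not differ in any member by this test. The counts of called members were 0 in Egr1wtNesCre- (0.0399% of 17544 genes), 0 in Egr1fNesCre- (0.0341% of 17602), 0 in Egr1wtNesCre+ (0.0348% of 17262) and 0 over all genotypes (0.0701% of 17124). An unadjusted p under 0.05 was reached by 0, 1, 0 and 1 members and by 591, 525, 356 and 969 of all genes tested, respectively. DESeq2 called 0 members in each. The Fosl2 value was 0.03 in Egr1wtNesCre- (95% interval -0.31 to 0.38), 0.17 in Egr1fNesCre- (-0.11 to 0.44) and 0.18 in Egr1wtNesCre+ (-0.21 to 0.56). The test of whether the sex difference in Egr1cKO mice departs from its mean in the other 3 genotypes gave 0 called members (0.00507% of 19742 genes), 3 with an unadjusted p under 0.05 (1202 of all genes tested) and 0 by DESeq2. For Fosl2 that difference was 0.91 (SE 0.21, 95% interval 0.48 to 1.34, edgeR adjusted p = 0.496), so that a sex difference particular to Egr1cKO mice was not established. Without the filter on low counts edgeR called more genes throughout. It then called 2 members between the sexes of Egr1fNesCre+ mice (0.934% of all genes), 1 in Egr1wtNesCre- (0.106%), 1 in Egr1fNesCre- (0.229%) and 2 in the departure of the sex difference in Egr1cKO mice (0.399%). Among the comparisons of both sexes it called 2 for Egr1fNesCre+ against Egr1wtNesCre+ (1.55%) and 1 for Egr1wtNesCre+ against Egr1wtNesCre- mice (0.456%).

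Co-variation was examined over the 24 mice on log2(CPM + 1), for the 21 pairs of members, with two-sided permutation tests of 100000 draws adjusted over the 21 pairs. Both values of a pair come from the same library and share its scaling. Fos and Junb went together most closely (Pearson r = 0.91, adjusted permutation p = 0.00021, Spearman rho = 0.95, adjusted permutation p = 0.00021), the raw p of 1e-05 being the smallest that these draws can give. The relation was as close within the HP40xx mice (r = 0.91, n = 12) and within the HP49xx mice (r = 0.92, n = 12), when each mouse was taken as a deviation from its group mean (r = 0.93) and without the 2 mice farthest from the median of Fos (r = 0.86). The mouse with the lowest Fos, Male Egr1wtNesCre+ 2 (4.42 CPM), also had the lowest Junb (35.3 CPM). Fos and Fosb (r = 0.67, adjusted permutation p = 0.00378, rho = 0.60, adjusted permutation p = 0.0144) and Fosb and Junb (r = 0.59, adjusted permutation p = 0.0117, rho = 0.54, adjusted permutation p = 0.0231) were related too. For Fos and Fosb r was 0.70 within HP40xx, 0.73 within HP49xx, 0.72 for deviations and 0.61 without the 2 farthest mice. For Fosb and Junb these values were 0.61, 0.64, 0.68 and 0.56.

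Fosl2 belonged to a separate set of relations. It was related to Atf3 (r = 0.65, adjusted permutation p = 0.00462, rho = 0.62, adjusted permutation p = 0.0144), with r of 0.60 within HP40xx, 0.61 within HP49xx and 0.70 without the 2 farthest mice, and 0.43 for deviations from group means. With Jun it had an r of 0.56 (adjusted permutation p = 0.0145, rho = 0.48, adjusted permutation p = 0.0539), which was 0.15 within HP40xx and 0.76 within HP49xx and 0.45 without the 2 farthest mice (adjusted permutation p = 0.112), so that its size was little lower but no longer passed. Fosb joined both sets, being related to Fosl2 (r = 0.54, adjusted permutation p = 0.0165, rho = 0.57, adjusted permutation p = 0.0178) and to Atf3 (r = 0.56, adjusted permutation p = 0.0145, rho = 0.59, adjusted permutation p = 0.0147). Both of these were weak within HP40xx (0.27 and 0.16) and strong within HP49xx (0.68 and 0.82), and for deviations from group means r was 0.20 and 0.47. Without the 2 farthest mice Fosb and Atf3 had an r of 0.47 (adjusted permutation p = 0.0956), little lower but no longer passing, and Fosb and Fosl2 one of 0.53. Fos and Fosl2 were hardly related (r = 0.17, adjusted permutation p = 0.745, rho = 0.17, adjusted permutation p = 0.693). In all, 7 of the 21 pairs had an adjusted p of at most 0.05 for r, all 7 positive. Within the 12 HP40xx mice the adjusted p was at most 0.05 for 1 pair, Fos and Junb, and within the 12 HP49xx mice for 4. Jund, the constitutive member, was in none of them (largest r 0.40, with Junb and with Fos). For deviations from the 8 group means 5 pairs passed, and they included Junb and Jund (r = 0.62, adjusted permutation p = 0.00599) and Fos and Jund (r = 0.56, adjusted permutation p = 0.0208), beside Fos and Junb, Fos and Fosb, and Fosb and Junb. The permutations shuffled the 24 deviations freely although 8 group means had been taken out, so p is too small in this setting. A relation of Jund to Fos is thus not established. Of the 7 pairs that passed with all mice, the 4 that involve Fosl2 or Atf3 did not pass in that setting (adjusted permutation p from 0.0754 to 0.505).

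**Figure D3:**
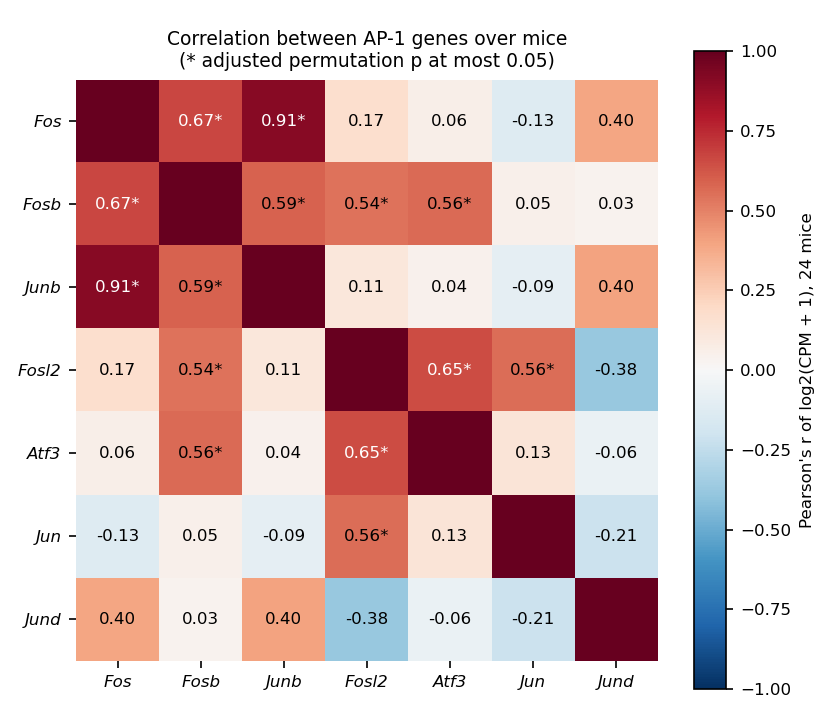
Pearson's r of log2(CPM + 1) over 24 mice for each pair of AP-1 genes, in color from -1 to 1, with an asterisk where the permutation p adjusted over 21 pairs was at most 0.05. The highest value is that of Fos and Junb (0.91), Fosb is related to both Fos and Fosl2, and the row of Jund holds no asterisk.

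**Figure D4:**
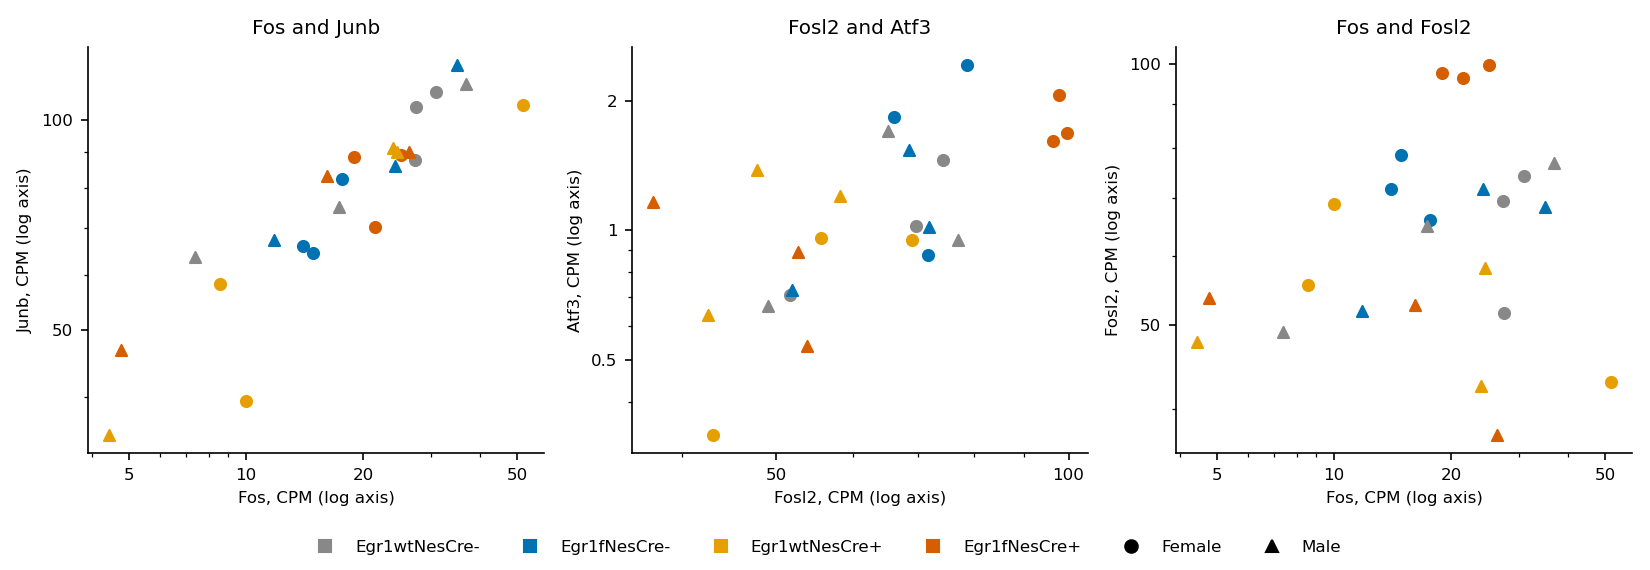
CPM of pairs of AP-1 genes in the 24 mice on log axes, colored by genotype, with circles for females and triangles for males. Junb follows Fos across all genotypes, Atf3 follows Fosl2 more loosely, and Fosl2 shows no trend with Fos, the 3 Egr1fNesCre+ females (96.4 to 99.7 CPM of Fosl2) lying at Fos values of 19.0 to 25.1 CPM.

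The genes outside the family whose levels were most like those of the members, by Pearson r over the 24 mice among 19742 genes, are given as a description. For Fos they were Dusp1 (r = 0.96), which encodes a phosphatase that switches off MAP kinases, Nr4a1 (0.93), an orphan nuclear receptor of the early response, and Npas4 (0.91). For Junb they were Nr4a1 (0.94), Arc (0.88) and Dusp1 (0.88), and for Fosb Egr2 (0.82), Arc (0.78) and Egr4 (0.76). Dusp1 spanned 6.69 to 46.0 CPM and Npas4 reached 64.4 CPM. Fosl2 was most like Lynx1 (0.83), Nrip3 (0.82) and Nefm (0.81), Atf3 most like Tsc22d3 (0.80), Tsc22d1 (0.79) and Mchr1 (0.79), Jun most like Myo5b (0.79), Txnrd1 (0.77) and Gm27239 (0.74), and Jund most like Sncb (0.80), Dus2 (0.80) and Rprm (0.80).

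The rapidly induced and glucocorticoid-responsive lists divided in the same way. Of the 27 rapidly induced genes, 16 had an r of at least 0.5 with Fos and 16 with Junb, against 1.34% and 1.04% of all genes kept. It was reached by 12 with Fosb (0.58% of all genes), 3 with Fosl2 (4.07%) and 1 with Atf3 (2.08%). Of the 16 glucocorticoid-responsive genes, 8 reached it with Fosl2 (4.07% of all genes) and 11 with Atf3 (2.08%), led by Tsc22d3 in both, but 1 with each of Fos, Fosb and Junb, in each case Pdk4. By count alone, the late or target genes also went more with Fosl2 and Atf3. Of these 19 genes, 5 (26.3%) reached it with Fosl2 (led by Nr4a2) and 7 (36.8%) with Atf3 (led by Nptx2). The count was 2 (10.5%) with Fosb, 3 with Jund (7.90% of all genes) and 0 with Fos, Junb or Jun. Only 0.58% of all genes reached it with Fosb, so beside the shares of all genes Fosb was not set apart from Fosl2 and Atf3. Of the 31 upstream regulators, 0 reached it with Fos, Fosb or Junb, and 3 with Fosl2. These values are descriptive and have no test.

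Egr1 and the members were compared over the 18 mice that keep Egr1, a set of 7 relations that was added after the data were seen. Junb (r = 0.63, adjusted permutation p = 0.0288, rho = 0.60, adjusted permutation p = 0.0237), Fos (r = 0.58, adjusted permutation p = 0.0288, rho = 0.63, adjusted permutation p = 0.0237) and Fosb (r = 0.57, adjusted permutation p = 0.0288, rho = 0.59, adjusted permutation p = 0.0237) were positively related to it. Jun was negatively related (r = -0.53, adjusted permutation p = 0.0399, rho = -0.57, adjusted permutation p = 0.0237). Within the 12 HP40xx mice r was 0.74 for Junb, 0.67 for Fos, 0.86 for Fosb and -0.69 for Jun, and within the 6 HP49xx mice it was 0.22, 0.24, -0.25 and -0.09. Without the 2 mice farthest from the median of each member r was 0.38, 0.47, 0.34 and -0.60, so that the positive values were lower without those mice and the relations were weak or of the other sign in the HP49xx series. In Egr1cKO mice, where Egr1 was at 4.86 to 10.2 CPM, Fos still ranged from 4.76 to 26.3 CPM and Junb from 46.7 to 90.0 CPM.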

How the data were processed

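Hippocampal RNA of 24 mice was sequenced, 1 library per mouse, and the authors deposited whole-number read counts per gene, not normalized, made without strand information from reads aligned to GRCm38. The submitters' processing notes name Trim Galore 3.8.2 and STAR 2.7.9. Library totals ran from 18025168 to 34955004 counts (median 22743950.5). This counting depth limits Atf3 (7 to 54 counts) most. The groups were taken from the labels. Nothing in the labels says more than that each library is a separate mouse, and no pair of libraries agreed within sampling noise.

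From the deposited counts, CPM were computed with TMM factors, and each comparison was fitted on the mice it names with the quasi-likelihood F test of edgeR 4.0.16 in R 4.3.3, after its filter on low counts (minimum count 10). A gene was called at a fold change of at least 1.2 and a Benjamini-Hochberg adjusted p of at most 0.05 over all genes tested. The interaction and the contrasts between sexes across genotypes used all 24 mice. The SE is the log2 fold change over the square root of F. DESeq2 1.42.0 was an alternative, as were its size factors in edgeR, no filter, a replicate block, a shared fit, no minimum fold change and leaving out each mouse. DESeq2 gave no adjusted p for some members, which were left as missing. Every member was described, and other genes were named from fixed lists, by their calls or by the 3 highest correlations with a member. The members and lists were chosen with earlier results of these data known. The difference between the sexes in the knockout comparison, the correlations with Egr1 and the settings without 5 mice rich in choroid plexus RNA were added after seeing the data. Tested on simulated counts for Egr1fNesCre+ against Egr1fNesCre- females (17359 genes), the edgeR step called 70% of genes changed 2-fold and 92% of those changed 4-fold. It also called 14 genes that had not been changed. The changed genes were drawn at random, and the rate for the members themselves, some of which vary widely, was not measured. Correlations used Python 3.11.15 with NumPy 2.4.6 and 100000 permutations.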

Additional observations from a re-analysis of the deposited data

Results flagged for a closer look

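In the 28 sets of 6 mice formed by the 7 members and 4 genotypes, 2 values lay far from the other 5 mice of their genotype, where chance alone flags about 1 in 20 sets. Fosb was at 6.42 CPM in Male Egr1wtNesCre- 2, and at 16.1 to 21.6 CPM in the other mice of that genotype. Jund was at 32.7 CPM in Male Egr1fNesCre+ 3, and at 22.4 to 25.8 CPM in the others. Male Egr1wtNesCre- 2 also had the lowest Fos (7.40 CPM) and Junb (63.7 CPM) of its genotype, and Male Egr1fNesCre+ 3 the lowest Fosl2 (37.3 CPM) and Jun (70.2 CPM) of all 24 mice.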

How the results depend on the processing

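Of the counts of called members, 193 kept their value or stayed within 1.5 times of it and 23 moved, counting the correlations. DESeq2 called 4 members in Egr1fNesCre+ against Egr1fNesCre- females, 2 in Egr1fNesCre- against Egr1wtNesCre- females and 2 between the sexes of Egr1fNesCre+ mice. Without a filter on low counts these counts were 3, 2 and 2, and there were 2 for Egr1fNesCre+ against Egr1wtNesCre+ mice, 1 for Egr1wtNesCre+ against Egr1wtNesCre- mice of both sexes, 1 in females alone, 1 between the sexes of Egr1wtNesCre- and 1 of Egr1fNesCre- mice, and 2 for the departure of the sex difference in Egr1cKO mice. DESeq2 size factors in edgeR gave 1 in Egr1fNesCre- against Egr1wtNesCre- females, which was Fos. Leaving out single mice gave 0 to 3 called members in Egr1fNesCre+ against Egr1fNesCre- females (3 without Female Egr1fNesCre- 1, where 16.1% of all genes were called), 0 to 2 in Egr1wtNesCre+ against Egr1wtNesCre- females (2 without Female Egr1wtNesCre+ 1), 0 to 2 in Egr1fNesCre- against Egr1wtNesCre- females (2 without Female Egr1fNesCre- 1, where 6.18% of all genes were called) and 0 to 1 between the sexes of Egr1fNesCre+ mice. Fos in Egr1wtNesCre+ against Egr1wtNesCre- females was at -1.63 without Female Egr1wtNesCre+ 1, and turned to 0.088 without Female Egr1wtNesCre+ 2 and to 0.13 without Female Egr1wtNesCre+ 3. The cause was not tested. Of the 21 correlations, 7 passed with all mice, 5 for deviations from group means, where p is too small, and 1 within HP40xx and 4 within HP49xx mice, where fewer mice enter. The r of Fosb with Egr1 turned to -0.25 within the 6 HP49xx mice.

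The replicate numbers of the groups did not pair the mice. The deviations of mice with the same number had a mean correlation of -0.0031 (range -0.26 to 0.35), and 9 of 24 mice correlated best with their own number. With the replicate number as a block, 0 members were called between the sexes of Egr1fNesCre+ mice (Fosl2 1.05, edgeR adjusted p = 0.0591), and no other count of members changed. The calls of Egr2, Nr4a3, Aqp4 and Ttr in females and of Npas4 were lost under the block (edgeR adjusted p = 0.0639, 0.0981, 0.0639, 0.0531 and 0.0662). With 3 mice a group, some 2-fold changes are missed, allele and mouse series cannot be told apart, and Atf3 is thinly counted.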
